A study of Mus musculus with 6 samples.

Results

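9 complement genes were described here in leukemia-initiating cells (LICs) of a mouse model of acute myeloid leukemia, out of 27179 genes with a deposited value. They were C3 and properdin (Cfp) as soluble components, C5ar1 and C3ar1 as peptide receptors, Cd59a, Cd59b, Cd55 and Cr1l as membrane regulators, and C1qbp, a binding partner of C1q. The list was chosen with the comparison of the libraries labelled Asic3-null and WT already known, and Cd59a was selected on having reads in 1 group only. Differences of these 9 genes between the groups are therefore given as a description, with no test.

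Complement is a system of blood and cell-surface proteins that tags and lyses targets and calls in phagocytes. The classical, lectin and alternative routes all lead to cleavage of C3, and later steps release the peptide C5a and build the pore called the membrane attack complex. Host cells carry receptors for the released peptides and regulators that stop the cascade on their own membrane, several of them held by a GPI (glycosylphosphatidylinositol) anchor. In marrow, myeloid cells are known to express peptide receptors, the integrin complement receptors and some of the soluble factors.

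Fetal liver cells were transformed with a retrovirus carrying the MLL-AF9 fusion and YFP and were transplanted into irradiated mice, and YFP+Mac-1+c-Kit+ cells were sorted from marrow as LICs. Total RNA gave 3 libraries labelled Asic3-/- (Asic3-null) and 3 labelled WT. Both groups were on the C57BL/6 strain, were given an age of 8 weeks and carried the same fusion and reporter. Asic3 encodes an acid-sensing cation channel, and the comparison asks which transcripts differ when it is deleted in LICs. The study describes its experiments in general as biological repeats, but the labels do not tie the 3 libraries of a group to separate mice. P-values here therefore measure the spread between these libraries, part of which may be technical. Values are RPKM, a read count divided by the length of the gene and the size of the library, and differences are those of mean log2(RPKM + 1), labelled Asic3-null minus labelled WT. Wherever a pair of levels is given, the group labelled Asic3-null comes first.

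Several features of the whole series bear on these genes. From the steps in the RPKM values, between 1947168 and 2381861 reads per library were recovered, so that 1 read in a 2 kb gene was worth 0.210 to 0.257 RPKM. Asic3 itself ran against the labels, with 9.12, 4.11 and 6.58 RPKM under the Asic3-null label and 1.22, 1.85 and 0.435 RPKM under the WT label. This difference of 1.81 (SE 0.35) passed limma's test (adjusted p = 0.0260) and missed it in 6 of 13 alternatives, among them those leaving out Asic3-null replicate 1 or 3 (0.0961 and 0.10) or WT replicate 1 or 3 (0.0761 and 0.0655). The span of Asic3 lies within that of Cdk5 in the annotation, and values per gene do not show whether the deleted part was transcribed. Xist averaged 58.0 ± 12.9 against 0.0358 ± 0.0187 RPKM (SD, n = 3 each), and 4 Y-linked genes summed to 0 in each library labelled Asic3-null and to 81.4 to 118 RPKM in those labelled WT, so sex and genotype label cannot be told apart. The summed level of 15 neutrophil granule genes was 3929 to 5239 RPKM under the Asic3-null label and 9259 to 10830 RPKM under the WT label, with 11 of the 14 tested called lower, beside 2.82% of all tested genes. For 12 monocyte and macrophage genes the sums were 1209 to 1406 against 1756 to 1930 RPKM, with 4 of 9 tested called lower, beside the same 2.82%. The 7 genes listed as LIC markers, of which only Itgam and Kit relate to the sort, were all detected. They summed to 490 to 530 against 456 to 566 RPKM, a sum whose members went both ways. Of these 7, Itgam was called lower and Meis1 higher, beside 2.82% and 0.523% of all tested genes. Without being called, Hoxa9 lay lower (-0.58, limma adjusted p = 0.151) and Cd34 higher (0.22, limma adjusted p = 0.433), neither overlapping between the groups. By quantitative RT-PCR the study reports higher Meis1 and Hoxa9 in Asic3-null LICs. Sums of 7 erythroid genes were 0.972 to 2.41 against 2.84 to 10.3 RPKM and those of 7 T cell genes 1.40 to 2.10 against 0.456 to 1.28 RPKM, neither overlapping between the groups. Of these genes, 1 erythroid and 3 T cell genes were at 0 in all 6 libraries. B cell sums were 95.6 to 170 against 126 to 177 RPKM, megakaryocyte sums 11.6 to 23.3 against 11.6 to 15.8 RPKM (1 of 2 tested, Gp1bb, was called lower), and mast cell, basophil and eosinophil sums 128 to 135 against 69.8 to 174 RPKM. In bulk libraries, fewer cells of a type and less RNA per cell cannot be told apart.

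Of the 9 genes, 8 had at least 1 read, 5 passed the filter of a mean RPKM of at least 1 (C1qbp, Cfp, C3, Cr1l and C5ar1), and Cd55 had none. The 3 with reads below the filter were Cd59a, Cd59b and C3ar1. In libraries labelled WT the order of mean level per length was C1qbp, Cfp, C3, Cr1l and C5ar1, and the values of C1qbp and Cfp overlapped there. In the libraries labelled Asic3-null, C3 stood below Cr1l, with no overlap between these neighbours in either group. C1qbp and Cfp lay at percentiles 97.1 and 93.7 of all 12037 tested genes by mean RPKM, whereas C5ar1 lay at 15.0. C5ar1 passed the filter only through the libraries labelled WT, where it was high. The groups did not overlap for C3, C5ar1 and Cfp, and 22.6% of all tested genes showed the same separation. As the list was chosen on this contrast, nothing is read from this count.

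**Figure D1:**
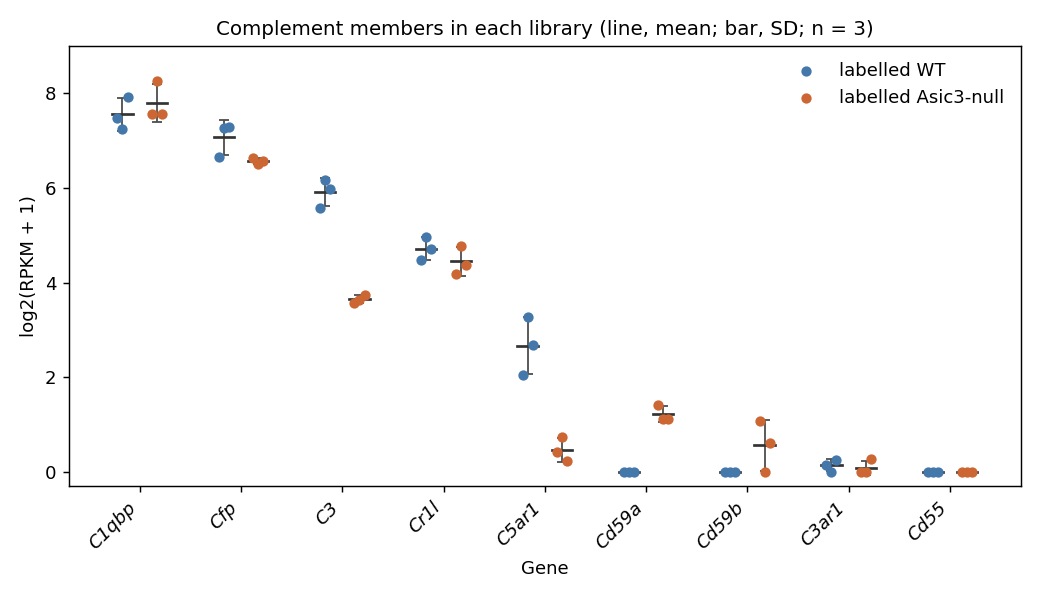
Level of the 9 complement genes in each of the 6 libraries as log2(RPKM + 1), ordered by mean, with blue points for libraries labelled WT, orange points for those labelled Asic3-null, a line at the group mean and a bar of 1 SD (n = 3). C3 and C5ar1 lie lower in every library labelled Asic3-null, Cd59a is above 0 in these libraries only, and Cd55 is at 0 in all 6.

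The upstream windows of C3 and Cfp are shown because these are the soluble components among the 9, and their levels did not overlap between the groups. Each is the 250 bases before the RefSeq start site in GRCm38.p6, written 5′ to 3′ along the gene's strand, with matches to the motifs given after the sequences in capitals. The C3 window is chr17:57228137-57228386 and that of Cfp is chrX:20931556-20931805, both on the minus strand and outside the annotated gene.
C3: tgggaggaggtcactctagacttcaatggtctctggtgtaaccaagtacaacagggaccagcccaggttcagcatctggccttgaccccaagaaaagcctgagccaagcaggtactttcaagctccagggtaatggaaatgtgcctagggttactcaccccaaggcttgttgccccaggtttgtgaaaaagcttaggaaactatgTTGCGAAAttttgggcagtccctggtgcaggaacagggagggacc
Cfp: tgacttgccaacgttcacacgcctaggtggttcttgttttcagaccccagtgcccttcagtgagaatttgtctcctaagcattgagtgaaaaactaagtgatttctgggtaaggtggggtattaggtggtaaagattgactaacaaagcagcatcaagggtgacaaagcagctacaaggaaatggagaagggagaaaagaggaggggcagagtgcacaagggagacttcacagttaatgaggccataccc

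4 short motifs, picked with the levels of these genes known, were searched on both strands of all 9 windows and of 32851 windows of the same length. For 4 of the 9 the start used lies inside the annotated gene, and 202 bases of the C5ar1 window, 48 of that of Cd59a and all 250 of those of Cd59b and Cd55 fall within the gene's span. The C/EBP letters, TTGCNNAA or TTNNGCAA, stood in 9.56% of all windows and in 1 of the 9, that of C3, where the match began 45 bases before the start. The Cfp window held no match to any of the 4. GAGGAA or TTCCTC, the core bound by PU.1, stood in 23.3% of all windows and in 1 of the 9, that of Cd59a. TGACAG or CTGTCA, the core bound by MEIS factors, stood in 15.9% of all windows and in 4 of the 9, those of C5ar1, C3ar1, Cd59a and Cr1l. In Cd59a it shared 1 base with the PU.1 match. The cyclic AMP response element, TGACGTCA, stood in 1.55% of all windows and in 0 of the 9. A match is a description of these letters and not of a bound factor.

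C3 (Entrez 12266, chr17:57203967-57228136), the central component that all routes cleave, had the larger log2 difference of the 2 soluble members. Its level was 10.9, 11.3 and 12.4 RPKM under the Asic3-null label and 46.9, 70.9 and 61.9 RPKM under the WT label. The lowest library labelled WT was well above the highest labelled Asic3-null. The group means were 11.6 ± 0.788 and 59.9 ± 12.1 RPKM (SD, n = 3 each), the latter 5.18 times the former, with a difference of -2.26 (SE 0.18) that ran from -2.42 to -2.13 over all 14 alternatives. The recovered reads were 130, 138 and 150 against 506, 709 and 752. The libraries labelled Asic3-null lay close together, with a coefficient of variation of 6.82% against 20.3%. The lower C3 level went with the lower granule and monocyte sums given above, whose part in it was not tested.

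Properdin, encoded by Cfp (Entrez 18636, chrX:20925454-20931555), stabilizes the enzyme of the alternative route that cleaves C3 and is stored in neutrophil granules. Its level was 97.8, 89.5 and 94.2 RPKM under the Asic3-null label and 99.2, 153 and 155 RPKM under the WT label. The groups did not overlap, but WT replicate 1 lay just above the highest library labelled Asic3-null. Means were 93.8 ± 4.13 and 136 ± 31.7 RPKM (SD, n = 3 each), and the difference was -0.50 (SE 0.18). It ran from -0.71 without WT replicate 1 to -0.39 without WT replicate 3. Cfp is on the X chromosome, where 13 of 345 tested genes were called, 6 higher and 7 lower, beside 3.35% of all tested genes called in either direction, 0.523% higher and 2.82% lower.

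The receptor for C5a, encoded by C5ar1 (Entrez 12273, chr7:16246743-16259540), draws neutrophils and monocytes to sites of complement activation. Its level was 0.336, 0.653 and 0.166 RPKM under the Asic3-null label and 3.15, 8.59 and 5.42 RPKM under the WT label. These were 2, 4 and 1 reads against 17, 43 and 33, and the groups did not overlap. With means of 0.385 ± 0.248 and 5.72 ± 2.74 RPKM (SD, n = 3 each), the ratio was 14.9. On the log2(RPKM + 1) scale the difference was -2.21 (SE 0.35), a scale that understates the change of a low gene. It was -3.60 with a pseudocount of 0.1 and -3.65 with limma-voom on the recovered reads. Spread within groups was wide, with coefficients of variation of 64.3% and 47.8%, and the 7 reads in all over the libraries labelled Asic3-null limit the precision of the ratio. C5ar1 was below the filter where a mean of at least 5 RPKM was required.

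C3ar1 (Entrez 12267, chr6:122847140-122856157), the receptor for C3a, gave 5 reads over all 6 libraries. Its values were 0, 0 and 0.198 RPKM under the Asic3-null label and 0.111, 0 and 0.197 RPKM under the WT label. The groups overlapped, and no difference was detectable at this depth.

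Cd59a and Cd59b encode GPI-anchored inhibitors of the membrane attack complex and lie beside each other on chromosome 2. Cd59a (Entrez 12509, chr2:104095753-104115410) had 1.67, 1.16 and 1.18 RPKM in libraries labelled Asic3-null and was listed at 0 in all 3 labelled WT. These values stood for 7, 5 and 5 reads against none. Scaled to library size alone, this was 2.41 RPM over the libraries labelled Asic3-null, and 0 reads over the WT group allow up to 0.467 RPM by the 3-read limit. Since the gene was picked for these reads, no ratio is drawn from them. With a mean of 0.667 RPKM it was below the filter.

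Cd59b (Entrez 333883, chr2:104069781-104085790), which ends 9962 bases before Cd59a begins, had 1.09, 0 and 0.535 RPKM in libraries labelled Asic3-null and 0 in all 3 labelled WT. Its 3 reads in all were too few for a ratio. The 2 genes share sequence: 185 words of 25 bases occur in transcripts of both, 10.3% of those of Cd59a and 14.1% of those of Cd59b. With words of 50 bases the shared part was 70 words, or 3.87% and 5.32%. Reads from such stretches could have been counted for either gene, so the split of their 20 reads is uncertain.

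Reads in 1 group only were seen for other genes as well. Counting genes with no read in 1 group and at least 17 in the other, the number that Cd59a had, 19 genes were found. Of these, 5 had reads only in the libraries labelled Asic3-null: Maoa with 58, Tceal8 with 29, Radx with 23, and Cd59a and Egr4 with 17 each. The first 3 are on the X chromosome. The other 14 had reads only in those labelled WT, led by the Y-linked Eif2s3y with 771, Ddx3y with 592, Kdm5d with 233 and Uty with 76. The autosomal genes with the most such reads were Dlk1 with 380, Psma8 with 205, Meg3 with 55, Vill with 44 and Slfn1 with 40. With any number of reads, 48 genes had reads in all 3 libraries labelled Asic3-null and none in those labelled WT, and 73 genes the reverse.

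The genes around Cd59a were compared to see whether the difference extended along the chromosome. Of 14 genes within 500 kb other than Cd59b, 8 were tested, and Hipk3, a nuclear protein kinase, rose in the libraries labelled Asic3-null. Hipk3 had 38.4, 27.0 and 46.5 RPKM there and 17.5, 16.8 and 18.8 RPKM in those labelled WT, a difference of 1.00 (SE 0.20, limma adjusted p = 0.0306). Over all tested genes, 0.523% were called higher. The Hipk3 call was lost in 7 of 14 alternatives, including those without Asic3-null replicate 1 or 3 (0.0992 and 0.106) and without WT replicate 1, 2 or 3 (0.0994, 0.0993 and 0.0710). Mir1902 lies inside Hipk3, and its reads cannot be told apart from those of its host. Leaving Mir1902 out, the 7 other tested differences were positive, with a median of 0.20, against 0.03 over all tested genes. Of these 7 only Hipk3 was called. As the window was centred on a gene picked for its reads, no regional shift is read from these signs. Below the filter, Abtb2 lay the other way without overlap, with 1, 3 and 2 reads under the Asic3-null label and 24, 6 and 5 under the WT label (-0.79). Also below it, Platr14 had 1 read in each library labelled Asic3-null and none in those labelled WT. Among those not called, Lmo2, a transcriptional cofactor of blood progenitors, had means of 195 ± 16.3 and 183 ± 16.4 RPKM. Caprin1, an RNA-binding protein, had 66.7 ± 2.51 and 48.9 ± 6.06 RPKM (SD, n = 3 each) without overlap and missed the test (0.45, limma adjusted p = 0.135). Mir1902 had 56.9 ± 14.2 and 39.6 ± 10.4 RPKM.

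**Figure D2:**
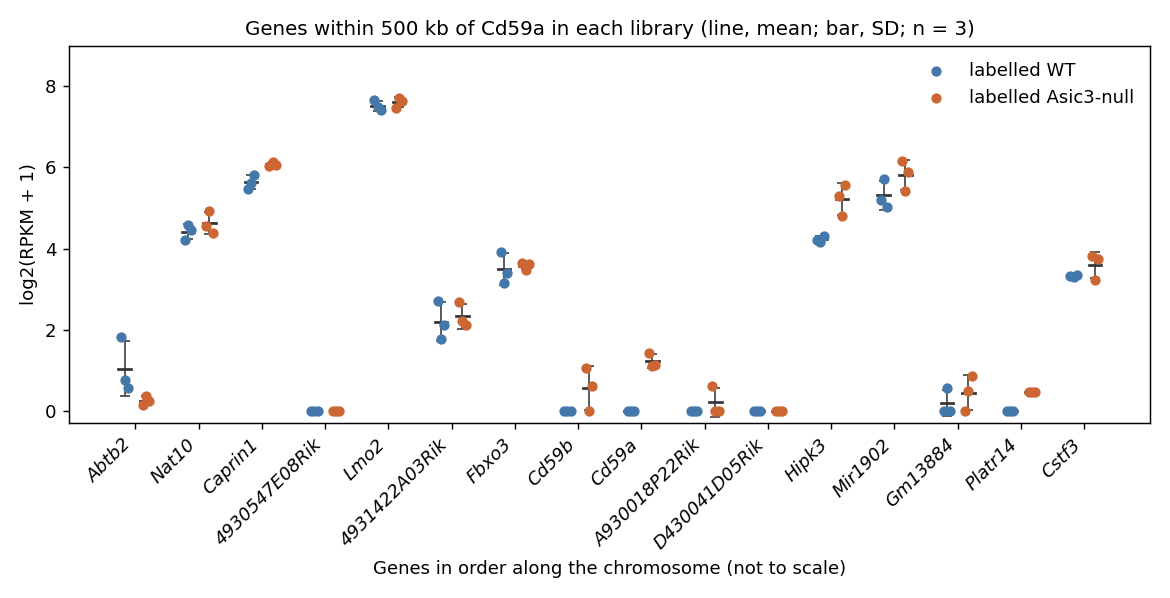
Level of Cd59a, Cd59b and the 14 genes within 500 kb of Cd59a in each library as log2(RPKM + 1), in order along the chromosome, with blue points for libraries labelled WT, orange points for those labelled Asic3-null, a line at the mean and a bar of 1 SD (n = 3). Hipk3, to the right of Cd59a, separates the groups, whereas Lmo2, the highest gene of the region, does not.

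Cd55 (Entrez 13136, chr1:130429798-130465009) encodes decay-accelerating factor, a GPI-anchored regulator that takes apart the enzyme cleaving C3. It was listed at 0 in all 6 libraries. No read among 13462807 allows up to 0.223 RPM by the 3-read limit, so a lower level would not have been detectable here.

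Cr1l (Entrez 12946, chr1:195098711-195131570) encodes Crry, a mouse membrane regulator that limits C3 deposition on the cell's own surface. Its level was 17.2, 26.5 and 19.7 RPKM under the Asic3-null label and 21.2, 30.0 and 25.2 RPKM under the WT label. Among the 4 membrane regulators it was the only one with more than 1.67 RPKM in any library. The groups overlapped, with means of 21.1 ± 4.84 and 25.4 ± 4.41 RPKM (SD, n = 3 each) and a difference of -0.26 (SE 0.20). The span of Cr1l shares 74 bases with that of Cd46 in the annotation, and the library kit does not mark strand. Cd46, another regulator, gave 4 and 9 reads over the 2 groups.

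C1qbp (Entrez 12261, chr11:70977846-70983026) encodes a protein that binds the globular heads of C1q and is found mostly in mitochondria. Its level was 188, 306 and 188 RPKM under the Asic3-null label and 178, 151 and 242 RPKM under the WT label. The highest value came from Asic3-null replicate 2, and the other libraries of both groups overlapped. Means were 227 ± 68.4 and 190 ± 46.9 RPKM (SD, n = 3 each), and the difference of 0.24 (SE 0.23) ran from 0.01 without Asic3-null replicate 2 to 0.43. C1qbp had 3317 of the 8684 reads on the 9 genes.

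To place the 9 genes, 52 other complement genes were looked up. 20 were listed at 0 in all libraries, 20 had reads below the filter and 12 were tested. 3 of the 12 were called, all lower in the libraries labelled Asic3-null: Fcnb, Itgam and Itgb2. Over all tested genes, 2.82% were called lower. Among the 12, 8 differences were negative and 4 positive. The groups did not overlap for 5 of them, beside 22.6% of all tested genes, and the median was -0.36, beside 0.03. Since this list was drawn up with results of these libraries known, its counts are a description.

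Of the soluble factors, Fcnb encodes ficolin B, a lectin-route recognition protein of myeloid cells. It had 6.51, 8.30 and 7.62 RPKM under the Asic3-null label and 35.4, 71.1 and 49.7 RPKM under the WT label. It fell by 2.60 (SE 0.24, limma adjusted p = 0.000836), and the call held in all 14 alternatives. Ficolin B is made by granulocyte precursors, and the granule sum moved with it, a part that was not tested. Cfb, encoding factor B of the alternative route, had 2.95 ± 0.484 and 5.98 ± 1.42 RPKM (SD, n = 3 each) without overlap and missed the test (-0.81, limma adjusted p = 0.119). Masp2, a lectin-route protease, had 5.23 ± 3.03 and 5.72 ± 5.46 RPKM, a spread wider than the difference. Of the 10 classical-route genes, all had reads but C1qb alone passed the filter, with 0.930 and 1.40 RPKM. The terminal route was nearly silent, with 6 of 7 genes at 0, including Hc, which encodes C5. C8g had 1.22 ± 0.803 and 1.83 ± 0.550 RPKM.

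Of the receptors, Itgam and Itgb2 encode the chains of Mac-1, an integrin that binds a C3 fragment. Itgam had 12.9, 12.3 and 16.9 RPKM under the Asic3-null label and 89.5, 85.7 and 55.1 RPKM under the WT label. It fell by 2.35 (SE 0.21, limma adjusted p = 0.000720), a call that held in all 14 alternatives. The cells were sorted on Mac-1, so every library came from cells above a gate on this protein. Itgb2 had 70.0, 70.4 and 96.3 RPKM against 167, 173 and 128 RPKM, without overlap. It fell by 0.98 (SE 0.17, limma adjusted p = 0.0188). The Itgb2 call was lost in 6 of 14 alternatives, 4 of which left out Asic3-null replicate 1 or 2 (0.0699 and 0.0690) or WT replicate 1 or 2 (0.0761 and 0.0726).

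The highest complement gene was Calr, an endoplasmic reticulum chaperone that also binds C1q, with 940 ± 146 and 690 ± 163 RPKM (SD, n = 3 each) and overlap between groups (0.46, limma adjusted p = 0.277). Cd93, a surface glycoprotein first described as a C1q receptor, had 22.4 ± 3.21 and 28.1 ± 1.51 RPKM (-0.32, limma adjusted p = 0.350). C5ar2, the other C5a receptor, had 6 and 11 reads over the groups, and Cr2, the receptor for C3 fragments on B cells, was at 0. Of 17 other regulators, 9 were at 0 and 3 were tested with no call. Thbd, encoding thrombomodulin, was the highest of these at 14.8 ± 4.43 and 12.9 ± 1.56 RPKM (0.16, limma adjusted p = 0.788), and its difference changed sign in 1 of 14 alternatives.

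**Figure D3:**
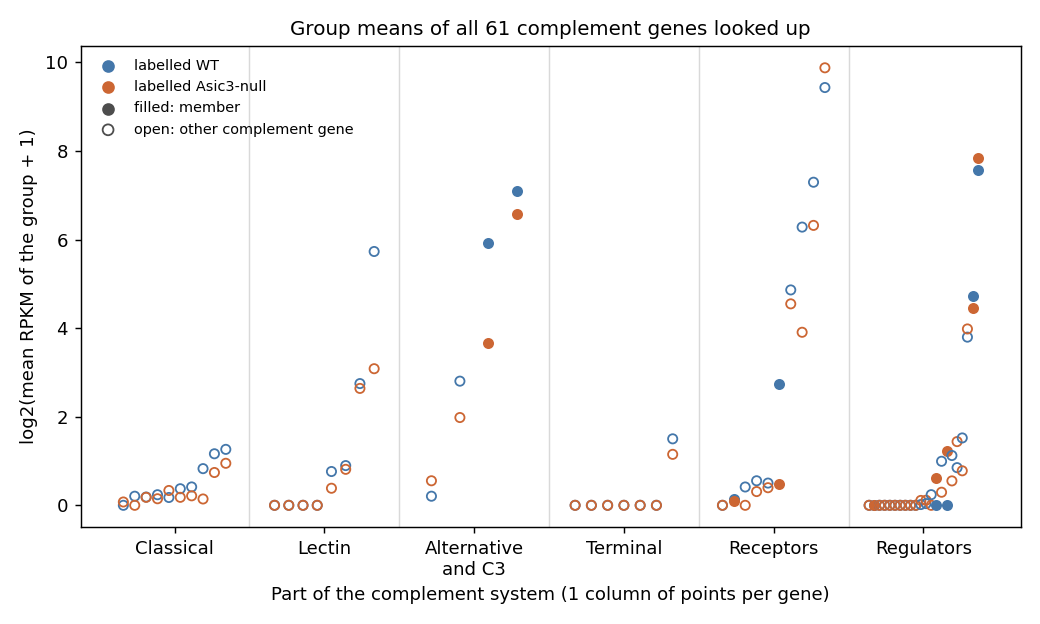
Group means of all 61 complement genes as log2(mean RPKM + 1), sorted by level within each part of the system, with blue for libraries labelled WT, orange for those labelled Asic3-null, filled points for the 9 described genes and open points for the 52 others. The classical and terminal parts lie near the bottom of the scale, and the largest gaps between the groups are those of Fcnb, C3, Itgam and C5ar1.

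**Figure D4:**
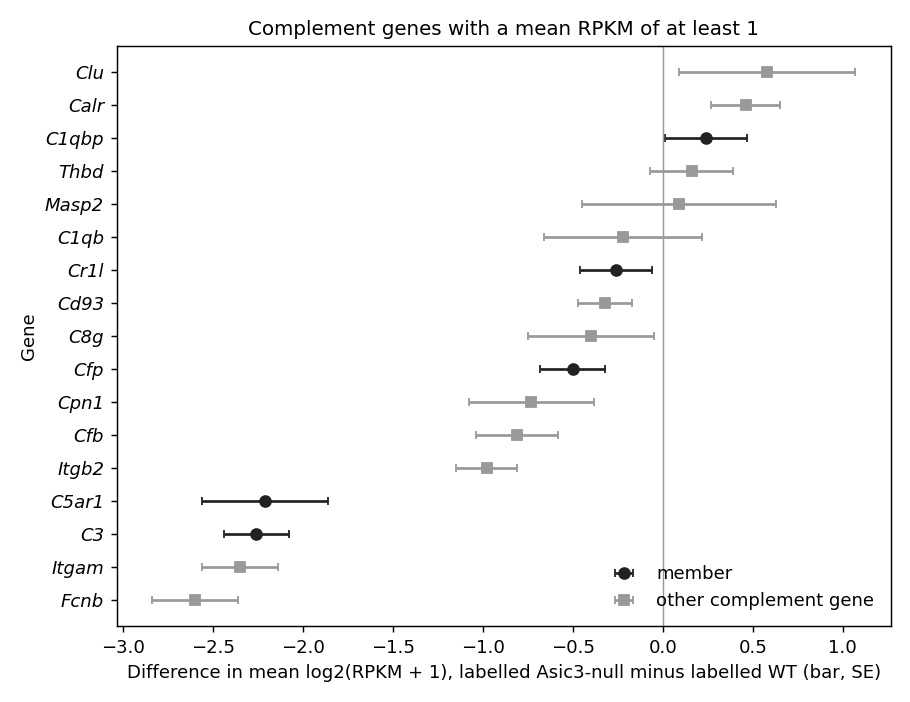
Difference in mean log2(RPKM + 1), labelled Asic3-null minus labelled WT, with its SE for the 5 described genes and 12 others that had a mean RPKM of at least 1. Black circles mark described genes and grey squares the others, and C5ar1 (-2.21), C3 (-2.26), Itgam (-2.35) and Fcnb (-2.60) lie apart from the other 13.

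Signals from C5a and C3a pass through G proteins, mainly inhibitory ones, to phospholipase C beta, the gamma form of PI3 kinase and small GTPases, and receptor kinases and arrestins end them. 19 genes of these and related steps, Gna15, Prex1 and Ptk2b included, were all tested. 2 were called, both lower in the libraries labelled Asic3-null, beside 2.82% of all tested genes. Pik3r5, a regulatory subunit of PI3 kinase gamma, had means of 2.11 ± 1.02 and 7.77 ± 1.13 RPKM (SD, n = 3 each) and fell by 1.54 (SE 0.27, limma adjusted p = 0.0182). Leaving out Asic3-null replicate 1 or 3 (0.0612 and 0.0721) or WT replicate 1 or 2 (0.0787 and 0.0682) ended the Pik3r5 call. Gng2, a G protein gamma subunit, had 9.91 ± 1.08 and 19.6 ± 3.20 RPKM and fell by 0.91 (SE 0.18, limma adjusted p = 0.0281). Gng2 in turn missed the threshold when Asic3-null replicate 1, 2 or 3 (0.0639, 0.0806 and 0.0862) or WT replicate 1 or 3 (0.0996 and 0.0800) was left out. Since this list was drawn up with results of these libraries known and not matched for level, its counts are a description. Across the 19 genes 15 differences were negative and the median was -0.26, beside 0.03. Of the 19, 12 did not overlap between groups, beside 22.6% of all tested genes. 2 of the 12 lay higher under the Asic3-null label without passing the test. These were Gnai3, an inhibitory alpha subunit with 112 ± 3.92 and 82.9 ± 8.92 RPKM (0.43, limma adjusted p = 0.122), and Gna15, a Gq-class alpha subunit with 15.3 ± 2.44 and 11.8 ± 1.32 RPKM (0.34, limma adjusted p = 0.389). The most abundant ones missed the test without overlapping: Gnai2, an inhibitory alpha subunit, had 501 ± 48.3 and 598 ± 41.1 RPKM (-0.26, limma adjusted p = 0.329). Gnb2, a beta subunit, had 388 ± 23.5 and 453 ± 29.2 RPKM (-0.22, limma adjusted p = 0.364). Rac2, a small GTPase of blood cells, had 350 ± 6.35 and 406 ± 7.60 RPKM (-0.21, limma adjusted p = 0.336).

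CD55 and CD59 reach the cell surface on a GPI anchor, whose synthesis and remodelling genes were all detected. Of 30, 28 were tested and 1 was called, close to the 3.35% of all tested genes. This was Pgap6 (formerly Tmem8), a phospholipase that acts on GPI-anchored proteins, with 7.62 ± 1.02 and 15.6 ± 3.00 RPKM (SD, n = 3 each). It fell by 0.94 (SE 0.20, limma adjusted p = 0.0373). The Pgap6 call was lost in 8 of 14 alternatives, among them those without Asic3-null replicate 1, 2 or 3 (0.112, 0.0957 and 0.0794) and without WT replicate 1 or 2 (0.129 and 0.122). Over the 28 genes 12 differences were negative and 16 positive, with a median of 0.03, the same as over all tested genes. The most abundant were Pigt, part of the complex that attaches the anchor, with 161 ± 8.23 and 149 ± 11.8 RPKM, and Dpm3 and Dpm2, subunits that help make its mannose donor, with 106 ± 15.2 and 88.0 ± 8.43 RPKM and with 54.9 ± 2.31 and 63.2 ± 11.4 RPKM. None of these 3 was called. Below the filter, Pgap1, which remodels the anchor, had 1, 0 and 1 reads against 14, 8 and 3, without overlap (-0.41).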

How the data were processed

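RNA of sorted YFP+Mac-1+c-Kit+ LICs was prepared with a TruSeq RNA v2 kit, which does not mark strand, and sequenced. The submitters' processing notes name CASAVA 1.8.2, TopHat2 2.0.12 and the build GRCm38. The authors deposited 1 table of RPKM per gene and library, and the counting tool and gene annotation are not given in the sources used here. Samples were grouped by the genotype in their labels.

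RPKM steps gave whole reads within 0.0001 for all 16825 genes above 0 (100% of them). These inferred reads gave library sizes of 1947168 to 2381861, of which 99.6% were on genes. The reads carry no molecular identifiers, so limits based on them (3 reads where none was seen) cover counting error only.

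A two-sided limma test (limma 3.58.1, R 4.3.3) of the group label, with an intensity trend, was run on log2(RPKM + 1) of the 12037 genes whose mean RPKM was 1 or more, and p-values were adjusted over all of them by Benjamini-Hochberg with a threshold of 0.05. The step was tested on simulated data. RefSeq for GRCm38.p6 gave gene positions and the symbols of 25275 genes, as well as the 9 upstream windows. All 9 members matched. Shared words of Cd59a and Cd59b were counted in GENCODE M21 transcripts with Python 3.11.15, numpy 2.4.6, pandas 2.3.3 and Biopython 1.88.

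The members, gene lists, motifs and windows shown were chosen with earlier results of these data known. Beside the members, the text names called genes of each list, the 3 with the highest mean RPKM among those not called and the genes with the most reads in 1 group only. Abtb2, Platr14, Pgap1, Gp1bb, Gnai3, Gna15, Prex1, Ptk2b, C1qb, C8g, Cfb, Masp2, Hc, Cd46, C5ar2 and Cr2 were named after their values were seen. So were Hoxa9 and Cd34.

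Alternatives left out each library in turn, used the replicate number as a block, dropped the intensity trend, scaled by median ratios or quantiles, ran limma-voom on the recovered reads, took a pseudocount of 0.1, or set the filter at 5 RPKM or none.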

Additional observations from a re-analysis of the deposited data

How the results depend on the processing

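All 14 alternatives kept the sign of the differences of C3, C5ar1, Cfp, Cr1l, C1qbp, Fcnb, Itgam and Itgb2 wherever these passed the filter. A mean RPKM of at least 5 left C5ar1 out. Other complement genes called stayed at 2 to 3. GPI anchor genes called went from 1 to 0 with no filter and with no intensity trend, and to 0 to 1 with 1 library left out. Signalling genes called went from 2 to 0 with no filter, to 1 at a mean of at least 5 RPKM, and to 0 to 1 with 1 library left out. They rose to 3 with limma-voom on the recovered reads. Neighbours of Cd59a called went from 1 to 0 with no filter and with no intensity trend, and to 0 to 1 with 1 library left out. Over all tested genes, 403 were called, 203 to 293 with 1 library left out and 543 with limma-voom on the recovered reads. The cause of these changes was not tested, apart from the fewer libraries and genes in some. With the replicate number as a block, 246 genes were called, with 0 GPI anchor genes and 1 signalling gene. Correlations did not show that the numbers pair the libraries, and with 3 libraries per group they cannot decide it. Deviations of same-numbered libraries correlated at 0.059, -0.059 and -0.123, and not every library correlated best with its own number. Depth limits Cd59a, Cd59b, C3ar1 and Cd55, where single reads set the values.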
